A study of Mus musculus with 8 samples.

Results

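The 9 genes described here, Nfkb1, Rela, Nfkbia, Nfkbib, Ikbkb, Chuk, Ikbkg, Traf6 and Tnfrsf1a, encode the core of the classical NF-kB pathway. They were picked by name from a list, and the choice was made with earlier results of these data known. All 9 were found among the 13996 genes with deposited values, and all 9 were within the filter of the 13982 genes tested. The values come from the brain cortex of male C57BL/6 mice, of which 4 stayed on a conventional diet (normal mice) and 4 received a diet with 60% fat for 8 weeks (HFD mice). All 8 mice were 16 weeks old, and 1 library was made per mouse from total RNA without ribosomal RNA. Levels are FPKM, the fragments counted per kilobase of transcript length and scaled to the mapped reads of the library, so levels of different genes can be set side by side. The tissue was brain cortex of 1 sex after 1 feeding time, so a value is a mean over all cell types of the dissected piece.

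NF-kB is a family of dimeric transcription factors that wait in the cytoplasm while bound to inhibitors of the IkB family. Receptors for tumor necrosis factor, interleukin-1 and microbial products activate a kinase complex, IKK, which phosphorylates IkB and marks it for destruction, so that the dimer enters the nucleus. In brain the pathway is known for inflammatory responses of microglia, astrocytes and endothelium, and it is also active in neurons. Its switch is the modification and destruction of proteins, which RNA levels do not measure.

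Nfkbia, which encodes IkB alpha, is a textbook target of NF-kB and closes a negative feedback loop. Its region before the start site is shown for that reason, with a match to the kappa B consensus in capitals. The consensus as searched is a pair of G, a pair of purines, any 2 bases, a pair of pyrimidines and a pair of C, which reads the same on both strands. Windows of 300 bases, from 250 before to 50 after a RefSeq start site (GRCm38.p6), were given for 7 of the 9 genes. Nfkb1 and Ikbkb had none. A match was found for 3 of the 7 genes (Nfkbia, Chuk and Ikbkg), against 12.6% of all genes with a window, and for Ikbkg in 1 of 4 windows. In Nfkbia the match began at position -29 from the start site, in Chuk at position 6 and in the Ikbkg window at position 14. The match is a sequence description and not a binding site. The printed stretches are chr12:55492648-55492897 for Nfkbia, chr19:44107453-44107482 for Chuk (both on the minus strand) and chrX:74429684-74429713 for Ikbkg (plus strand).
Nfkbia: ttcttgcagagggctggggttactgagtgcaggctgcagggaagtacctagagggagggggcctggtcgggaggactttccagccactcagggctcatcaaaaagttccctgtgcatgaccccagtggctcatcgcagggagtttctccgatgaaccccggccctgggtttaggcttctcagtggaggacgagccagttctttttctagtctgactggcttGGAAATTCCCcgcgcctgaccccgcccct
Chuk: ctcgcgagacGGAGGACTCCgcaagcctcg
Ikbkg: agccggaagtGGAGTTTTCCactgcagaga

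The libraries differed between the diets in markers of neighboring tissue and of cell types of the cortex. Markers of cortical projection neurons were all measured (8 of 8), and their summed FPKM was 277.2 to 424.1 in normal mice and 469.7 to 554.6 in HFD mice. The summed level of 6 striatal markers was 184.2 to 344.7 against 50.3 to 60.6, and that of 7 cerebellar markers was 30.9 to 376.6 against 22.1 to 29.1, highest in normal mice 2 and 3. Oligodendrocyte markers summed to 2103.7 to 3462.7 and to 1451.3 to 2019.1. These sums did not overlap between the diets. Nor did those of thalamic markers (27.3 to 77.4 against 23 to 25.4) and oligodendrocyte precursor markers (34.5 to 36.6 against 29.8 to 31.8). Sums of blood markers overlapped (239.2 to 479.7 against 199.1 to 247.4), with 5 of 5 called lower, where 15.3% of all genes tested were. Choroid plexus markers summed to 342.5 to 723.9 in normal mice. In HFD mice they summed to 943.3 in mouse 4 and to 22.1 to 78.3 in the others. The counts of calls were also computed without normal mice 2 and 3 and with cerebellar markers as a covariate. The same was done for the fold changes of the 9 genes and of the called genes named below. No adjustment was made for the striatal, cortical neuron, thalamic, oligodendrocyte lineage, blood or choroid plexus differences. In bulk tissue, fewer cells of a type and less RNA per cell cannot be told apart.

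None of the 9 genes was called as different between the diets. In limma, with Benjamini-Hochberg adjustment over 13982 genes, 0 of 9 had an adjusted p below 0.05, where 33.1% of all genes tested were called. The smallest adjusted p of the 9 was 0.135, for Nfkbib. Without adjustment, 0 of 9 had a p below 0.05, against 44.3% of all genes. The FPKM values of the diets overlapped for 9 of 9, while 31.9% of all genes had no overlap. Among the 5561 genes whose mean FPKM lay between those of Tnfrsf1a (2.54) and Nfkbib (12.1), 29.4% were called.

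The intervals around these differences were narrow. The log2 fold changes on the log2(FPKM + 0.1) scale lay between -0.14 and 0.20, with 6 above and 3 below 0. Their median was 0.03 (0.003 over all genes tested), and their median size was 0.08, against 0.17 over all genes tested. The median standard error was 0.08 for the 9 genes and 0.08 for all genes. For 9 of 9 genes the 95% interval from limma, not adjusted for the number of genes, lay inside a change of 1.5-fold in either direction. The same held for 74.3% of all genes tested. A p above the threshold does not show that the diets are equal, and the interval of each gene gives the size that the data still allow.

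**Figure D1:**
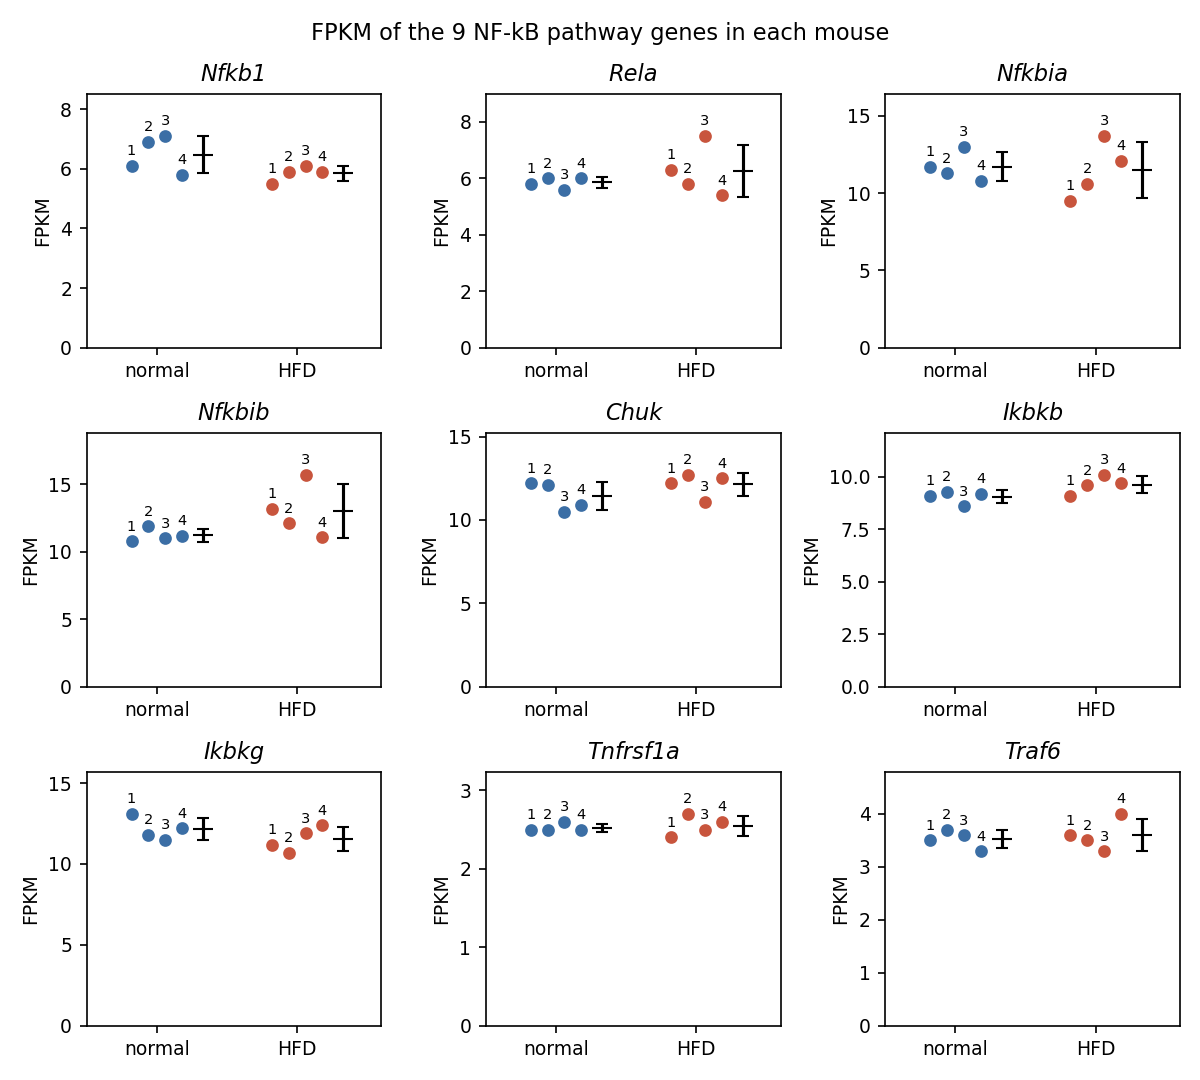
FPKM (vertical axes, from 0) of each of the 9 genes in each mouse, with points numbered by mouse, blue for normal and red for HFD, and the mean and SD of the 4 mice of a diet in black. The diets overlap in each panel, and HFD mouse 3 is highest for Rela (7.5), Nfkbia (13.7) and Nfkbib (15.7).

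Nfkb1 and Rela encode the p50 precursor and p65, which form the most common NF-kB dimer. Nfkb1 (ENSMUSG00000028163.17, chromosome 3 of GRCm38, 135584655 to 135691547) was 6.1, 6.9, 7.1 and 5.8 FPKM in normal mice 1 to 4 and 5.5, 5.9, 6.1 and 5.9 in HFD mice 1 to 4. Normal mice 2 and 3 held the highest levels, and the other normal mice lay within the range of the HFD mice. The log2 fold change of Nfkb1 was -0.14 (standard error 0.08, 95% interval -0.32 to 0.04, limma adjusted p = 0.199). The 2 mice with most Nfkb1 were also the 2 with the highest cerebellar marker sums, 281.0 and 376.6 against 30.9 and 105.7. Without these 2 mice the log2 fold change of Nfkb1 was -0.02 (standard error 0.08), and with the cerebellar covariate it was 0.05 (standard error 0.12). The 2 mice were chosen after the data were seen, and leaving out the highest normal values moves a negative difference toward 0 by itself. Normal mouse 4 had a higher cerebellar sum than normal mouse 1 but less Nfkb1 (5.8 against 6.1). A link of Nfkb1 to these markers was not tested.

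Rela (ENSMUSG00000024927.7, chromosome 19, 5637483 to 5648130) was 5.8, 6.0, 5.6 and 6.0 FPKM in normal mice and 6.3, 5.8, 7.5 and 5.4 in HFD mice. Normal mice were close together, while HFD mice 1 and 3 lay above and HFD mouse 4 below all normal mice. Rela had a log2 fold change of 0.08 (standard error 0.10, 95% interval -0.13 to 0.30, limma adjusted p = 0.533). Without HFD mouse 3 it was -0.01, so the sign of the difference rested on this mouse.

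Nfkbia and Nfkbib encode IkB alpha and IkB beta, which hold the dimer in the cytoplasm. Nfkbia (ENSMUSG00000021025.8, chromosome 12, 55489410 to 55492647), the gene with the kappa B match shown above, was 11.7, 11.3, 13.0 and 10.8 FPKM in normal mice. In HFD mice it was 9.5, 10.6, 13.7 and 12.1, so that this diet held both the lowest and the highest mouse. The log2 fold change of Nfkbia was -0.04 (standard error 0.11, 95% interval -0.28 to 0.21, limma adjusted p = 0.812), and it took either sign when single mice were left out, between -0.13 and 0.05. By the same interval, Nfkbia in HFD mice was 0.823-fold to 1.15-fold of the normal level.

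Nfkbib (ENSMUSG00000030595.15, chromosome 7, 28758251 to 28767512) was 10.8, 11.9, 11.0 and 11.2 FPKM in normal mice and 13.2, 12.1, 15.7 and 11.1 in HFD mice. In the HFD group 3 of 4 mice lay above all normal mice, and HFD mouse 4 lay among them. The log2 fold change, the largest of the 9, was 0.20 (standard error 0.10, 95% interval -0.01 to 0.42, limma adjusted p = 0.135). Nfkbib depended on single mice. Without HFD mouse 4 it passed the threshold with a log2 fold change of 0.27 (limma adjusted p = 0.04996), and without HFD mouse 3 the log2 fold change was 0.11. Over all alternatives its adjusted p from limma ranged from 0.04996 to 0.471. In the GENCODE annotation used here, 314 exonic bases of Nfkbib (14.5%) lie opposite Ccer2 and 42 (1.94%) opposite Sirt2. The libraries were made with a stranded kit, but the sources used here do not say whether the counting used strand, and if not such reads could belong to either gene. Ccer2, with the larger overlap, was not among the values, so its part in the value of Nfkbib could not be examined. Sirt2, a deacetylase gene abundant in oligodendrocytes, moved the other way, with 49.1 to 63 FPKM in normal mice and 41 to 48.7 in HFD mice.

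The IKK complex consists of the kinases IKK alpha (Chuk) and IKK beta (Ikbkb) and the regulatory subunit NEMO (Ikbkg). Chuk (ENSMUSG00000025199.16, chromosome 19, 44073335 to 44107480) was 12.2, 12.1, 10.5 and 10.9 FPKM in normal mice and 12.2, 12.7, 11.1 and 12.5 in HFD mice. Ikbkb (ENSMUSG00000031537.15, chromosome 8, 22659212 to 22706589) was 9.1, 9.3, 8.6 and 9.2 FPKM in normal mice and 9.1, 9.6, 10.1 and 9.7 in HFD mice. For both kinases HFD held the highest mouse, and the ranges of the diets overlapped. On the log2 scale the change was 0.09 for Chuk (95% interval -0.07 to 0.24, limma adjusted p = 0.358) and 0.09 for Ikbkb (95% interval -0.04 to 0.21, limma adjusted p = 0.243). With single mice left out Chuk ranged from 0.05 to 0.13, and with the cerebellar covariate it was 0.001. Ikbkb had the smallest standard error of the 9 genes, 0.05.

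Ikbkg (ENSMUSG00000004221.16, chromosome X, 74393290 to 74453854) was 13.1, 11.8, 11.5 and 12.2 FPKM in normal mice and 11.2, 10.7, 11.9 and 12.4 in HFD mice. HFD mice 1 and 2 lay below all normal mice, and the other HFD mice lay among them. Ikbkg had a log2 fold change of -0.07 (standard error 0.06, 95% interval -0.22 to 0.07, limma adjusted p = 0.405). With single mice left out it ranged from -0.11 to -0.04, and with the cerebellar covariate it was -0.20 (standard error 0.10). Of the exonic bases of Ikbkg, 418 (5.15%) lie opposite G6pdx, which encodes the first enzyme of the pentose phosphate pathway. G6pdx was 11.4 to 15.3 FPKM in normal mice and 8.9 to 10 in HFD mice, and the part of these shared bases in the value of Ikbkg was not tested.

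Upstream, Tnfrsf1a encodes the TNF receptor TNFR1, and Traf6 encodes the ubiquitin ligase that relays signals from interleukin-1 and Toll-like receptors. Tnfrsf1a (ENSMUSG00000030341.17, chromosome 6, 125349362 to 125362484) was 2.5, 2.5, 2.6 and 2.5 FPKM in normal mice and 2.4, 2.7, 2.5 and 2.6 in HFD mice. Traf6 (ENSMUSG00000027164.8, chromosome 2, 101678429 to 101701669) was 3.5, 3.7, 3.6 and 3.3 FPKM in normal mice and 3.6, 3.5, 3.3 and 4.0 in HFD mice. For both genes the HFD range enclosed the normal range or met its lower end, and the values are so low that rounding to 0.1 is a visible part of the spread. The log2 fold changes were 0.01 for Tnfrsf1a (95% interval -0.18 to 0.20, limma adjusted p = 0.921) and 0.03 for Traf6 (95% interval -0.16 to 0.22, limma adjusted p = 0.825).

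**Figure D2:**
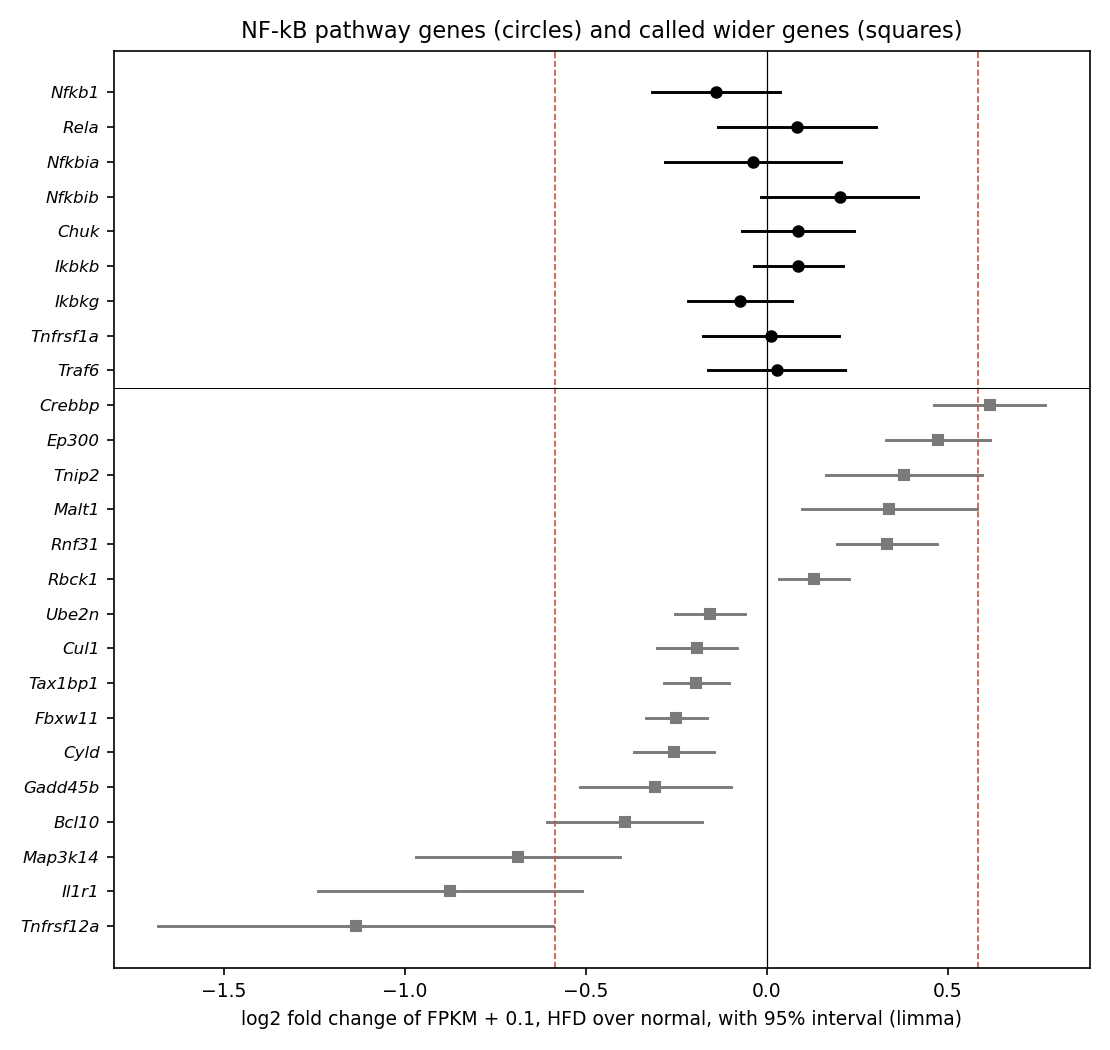
Log2 fold change of FPKM + 0.1, HFD over normal (horizontal axis), with the 95% interval from limma for the 9 genes (circles) and the 16 called genes of the wider pathway (squares). The dashed lines mark a 1.5-fold change, and the 9 circles with their intervals, from -0.32 to 0.42 at the widest, lie between them and cross 0. Il1r1 passed the filter only through the normal mice, so its square is a description and not a test.

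In the order of the levels, Ikbkb, Traf6 and Tnfrsf1a held the same places in both diets, and the other 6 genes changed places among neighbors whose ranges overlapped. In normal mice, the mean levels of Ikbkg, Nfkbia, Chuk and Nfkbib were 12.2, 11.7, 11.4 and 11.2 FPKM, and neighbors in this order overlapped in their ranges. Ikbkb followed with 9.05 ± 0.311 FPKM (SD, n = 4), below all values of these 4 genes. Nfkb1 at 6.48 ± 0.624 and Rela at 5.85 ± 0.191 FPKM (SD, n = 4) overlapped each other and lay below Ikbkb. Traf6 (3.53 ± 0.171 FPKM, SD, n = 4) and Tnfrsf1a (2.53 ± 0.05 FPKM, SD, n = 4) were lowest, each with no overlap to the gene above it. In HFD mice the upper 5 genes, led by Nfkbib with 13.0 ± 1.98 FPKM (SD, n = 4), overlapped with their neighbors. Rela (6.25 ± 0.911) then stood before Nfkb1 (5.85 ± 0.252), again with overlapping ranges. Traf6 and Tnfrsf1a kept their places. RNA for inhibitors and IKK subunits was present at a higher level per length than RNA for the DNA-binding subunits in both diets.

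The spread between mice was uneven among the genes and was wide for 3 of them in HFD mice. In HFD mice the coefficient of variation was 14.6% for Rela, 15.9% for Nfkbia and 15.2% for Nfkbib, and in normal mice it was 3.27%, 8.05% and 4.26%. The other 6 genes stayed between 1.98% and 9.63% in both diets. HFD mouse 3 was alone at the highest level of its diet for 5 of the 9 genes and lay above the diet mean by 0.27, 0.27 and 0.28 on the log2 scale for Rela, Nfkbia and Nfkbib. HFD mouse 4 lay below the diet mean for Rela (-0.20) and Nfkbib (-0.22) but not for Nfkbia (0.09). HFD mouse 3 also had the highest oligodendrocyte marker sum of its diet (2019.1, against 1451.3 to 1509.7 in the other HFD mice), and whether this bears on the 3 genes was not tested.

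**Figure D3:**
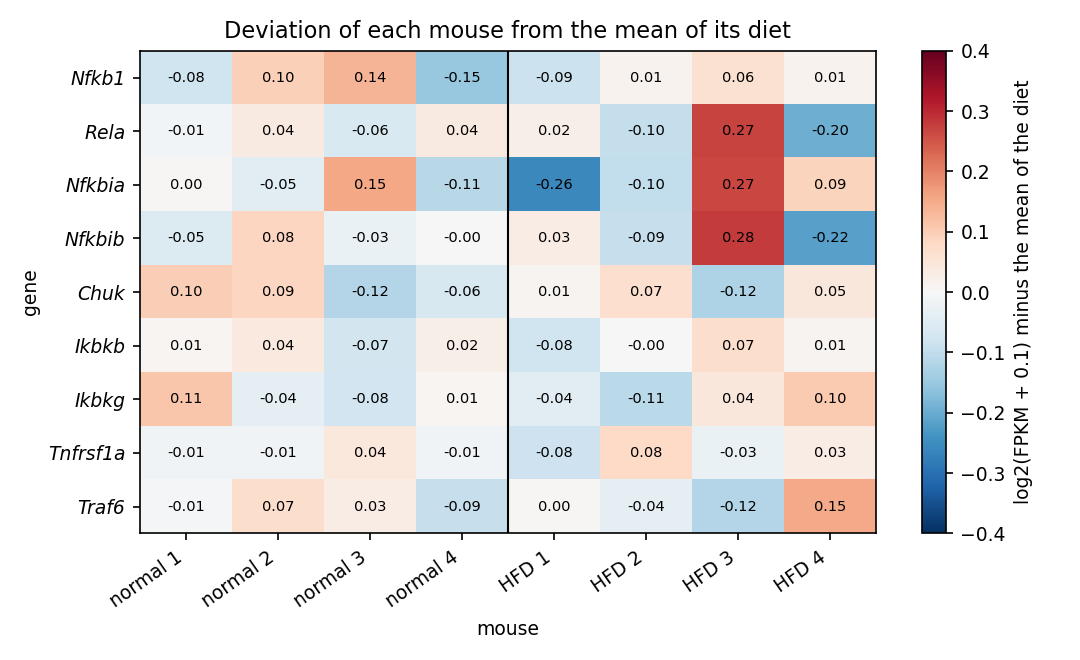
Deviation of each mouse (columns) from the mean of its own diet for each of the 9 genes (rows), as log2(FPKM + 0.1), red above and blue below. The deepest colors are those of HFD mouse 3 for Rela, Nfkbia and Nfkbib (0.27, 0.27 and 0.28), of HFD mouse 1 for Nfkbia (-0.26) and of HFD mouse 4 for Nfkbib (-0.22) and Rela (-0.20).

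Ratios of FPKM within a mouse were computed for 6 pairs of these genes as a description, without a test. Nfkbib over Rela was 1.86, 1.98, 1.96 and 1.87 in normal mice and 2.10, 2.09, 2.09 and 2.06 in HFD mice. This was the only 1 of the 6 ratios without overlap between the diets, and its SD was 0.0637 in normal and 0.0184 in HFD mice (n = 4 each). Of single genes tested, 31.9% had no overlap between the diets, and no such share was computed over ratios. Within the HFD mice, Rela and Nfkbib were both highest in mouse 3 and both lowest in mouse 4. Nfkbia over Rela overlapped between the diets, at 2.01 ± 0.229 and 1.85 ± 0.300 (SD, n = 4 each, normal first). Ikbkb over Chuk, the ratio of the kinases, was 0.794 ± 0.0451 and 0.797 ± 0.0764 (SD, n = 4 each).

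To see the pathway around these genes, 87 other NF-kB genes were listed in 9 groups by role, and 56 of them were among the values used here and tested. Of the 56 genes, 16 were called, 6 higher (17.7% of all genes tested were called higher) and 10 lower (15.3% of all genes) in HFD mice. Il1r1 counts among the 10 but could enter only through the normal mice, as described below. The called share of 28.6% was near the 33.1% of all genes. A call with a change over 1.5-fold in either direction was found in 4 of the 56 (Crebbp, Il1r1, Map3k14 and Tnfrsf12a), against 7.13% of all genes tested. The median log2 fold change of the 56 genes was -0.05, and that of all genes was 0.003. The 31 genes without a value, such as Tnf, Il1b, Il6, Ccl2, Nfkb2, Rel, Nfkbie, Tlr2 and Tlr4, were not analysed here. The authors' filter removed genes with a mean FPKM under 1, so a gene near that limit could enter through the diet in which it is higher.

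Among 7 receptors, 2 were lower and none was higher, where 15.3% of all genes tested were called lower and 17.7% higher. Il1r1, the signaling receptor of interleukin-1, was 1.5, 1.6, 1.5 and 1.1 FPKM in normal mice and 0.7, 0.8, 0.7 and 0.7 in HFD mice. Tnfrsf12a, the receptor of the cytokine TWEAK, was 3.5, 7.9, 6.7 and 4.8 FPKM in normal mice and 1.9, 2.2, 3.1 and 2.7 in HFD mice. Both genes were lower in each HFD mouse than in each normal mouse. Il1r1 was within the filter on a mean FPKM of 1 only through the normal mice (mean 1.43, against 0.725 in HFD mice), so its call is conditioned on its direction and its values are given as a description, with no test. Its log2 fold change was -0.88 with the added constant of 0.1 and -0.49 with a constant of 1, and rounding to 0.1 is a large part of such values. Tnfrsf12a had a log2 fold change of -1.14 (standard error 0.24, limma adjusted p = 0.00754). It was highest in normal mice 2 and 3, which had the highest cerebellar marker sums. Without these mice its log2 fold change was -0.73 (limma adjusted p = 0.0449), and with the cerebellar covariate it was -0.27 (standard error 0.27, limma adjusted p = 0.578). Leaving out the highest normal mice moves such a difference toward 0 by itself, and a link to the cerebellar markers was not tested. Il1rap, the partner chain of Il1r1, was not called (13.7 to 16.4 FPKM against 15.3 to 16.8).

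Of the noncanonical and IKK-related kinases, Map3k14 and Tbk1 were tested, and 1 was called, where 33.1% of all genes tested were called. Map3k14, which encodes NIK, the kinase that starts noncanonical NF-kB signaling through IKK alpha, was 2.0, 2.0, 2.2 and 1.9 FPKM in normal mice and 1.3, 1.4, 1.1 and 1.1 in HFD mice. It was lower in each HFD mouse, a difference of -0.69 on the log2 scale (standard error 0.13, limma adjusted p = 0.00391). With the cerebellar covariate the log2 fold change was -0.62 (standard error 0.23) and missed the threshold (limma adjusted p = 0.144), and with an added constant of 1 it was -0.44. Tbk1, an IKK-related kinase, was not called (15.3 to 16.6 FPKM against 14.4 to 15.8).

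Of 3 coactivators, 2 were higher, where 17.7% of all genes tested were called higher. Crebbp, a histone acetyltransferase that binds p65 among many factors, was 13, 12, 13 and 14.3 FPKM in normal mice and 18.9, 21.2, 21.4 and 18.9 in HFD mice. The difference of 0.62 on the log2 scale (standard error 0.07, limma adjusted p = 0.000729) was the largest increase of the 56 genes. Ep300, the close relative p300, was 6.90 ± 0.337 and 9.63 ± 0.562 FPKM (SD, n = 4 each), or 0.47 on the log2 scale (limma adjusted p = 0.00119). Ncoa3, the third of the group, was not called (8.0 to 10.3 FPKM against 9.4 to 11.5). Crebbp was called in 18 of 18 alternatives and Ep300 in 17 of 18. These coactivators serve many enhancers and are not particular to NF-kB.

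Of 13 genes in the group of the TAK1 kinase and ubiquitin ligases, 2 were higher, 3 were lower and 8 were not called, a called share of 38.5% near that of all genes. Rnf31 (HOIP) and Rbck1 (HOIL-1), which build linear ubiquitin chains on IKK complexes with Sharpin, were 6.70 ± 0.141 and 28.1 ± 1.08 FPKM in normal mice and 8.48 ± 0.556 and 30.8 ± 0.614 in HFD mice (SD, n = 4). Rnf31 differed by 0.33 on the log2 scale (limma adjusted p = 0.00402), and Rbck1 by 0.13 (limma adjusted p = 0.0411). Sharpin was not called. The lower genes were Fbxw11 (beta-TrCP2) and Cul1, parts of the ligase that ubiquitinates phosphorylated IkB, and Ube2n, the E2 enzyme that works with Traf6. Fbxw11 was 37.9 ± 0.424 in normal mice and 31.9 ± 0.709 FPKM in HFD mice (SD, n = 4 each), or -0.25 on the log2 scale (limma adjusted p = 0.00176). The log2 fold changes were -0.19 for Cul1 and -0.16 for Ube2n. Leaving out single mice, Rbck1 was called only without normal mouse 1, and Ube2n lost its call without normal mouse 2 (limma adjusted p = 0.0598) and without HFD mouse 1 (limma adjusted p = 0.0636), while Rnf31, Fbxw11 and Cul1 were called in 8 of 8 such fits. Without normal mice 2 and 3, limma called Rnf31 and Fbxw11 but not Cul1 (adjusted p = 0.0615), Ube2n (adjusted p = 0.0575) or Rbck1 (adjusted p = 0.215). With the cerebellar covariate, limma called 0 of these 5 genes, where it called 3.72% of all genes tested. The log2 fold changes were then 0.30 for Rnf31, -0.23 for Fbxw11, -0.19 for Cul1 and -0.16 for Ube2n, with larger standard errors (0.06 to 0.11), and 0.04 for Rbck1. Map3k7, which encodes TAK1, and its partners Tab1, Tab2 and Tab3 were not called. Nor was Btrc (beta-TrCP1), the relative of Fbxw11, with a log2 fold change of -0.03 (limma adjusted p = 0.656).

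Of 8 genes in the group of deubiquitinases and brakes, 1 was higher and 2 were lower. The shares of all genes tested were 17.7% higher and 15.3% lower. Cyld, a deubiquitinase that restrains IKK, was 35.4, 32.6, 34.3 and 34.1 FPKM in normal mice and 27.4, 30.4, 27.3 and 29.1 in HFD mice, a difference of -0.26 on the log2 scale (limma adjusted p = 0.00492). Tax1bp1, an adaptor of A20, was 59.9 ± 1.81 and 52.3 ± 1.15 FPKM (SD, n = 4 each), a log2 fold change of -0.19. Tnip2, a binding partner of A20, was 5.6, 5.1, 5.4 and 6.2 FPKM in normal mice and 7.5, 8.0, 6.1 and 7.6 in HFD mice. HFD mouse 3 lay among the normal mice, which made Tnip2 the only called gene of the 16 with overlapping values (log2 fold change 0.38, limma adjusted p = 0.0156). With the cerebellar covariate the limma adjusted p was 0.076 for Cyld, 0.223 for Tax1bp1 and 0.324 for Tnip2, so none of the 3 was called, and Tnip2 was also not called without normal mice 2 and 3 (limma adjusted p = 0.108). Tnfaip3, which encodes A20 itself and is a target of NF-kB, was 1.2 to 1.7 FPKM in normal mice and 1.4 to 1.5 in HFD mice and was not called.

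Among 11 adaptors and receptor kinases, 1 gene was higher and 1 was lower, and they are partners in the same complex. The shares of all genes tested were 17.7% higher and 15.3% lower. Bcl10 was 8.4, 6.9, 6.4 and 7.5 FPKM in normal mice and 5.0, 5.3, 5.8 and 6.0 in HFD mice, which is -0.39 on the log2 scale (standard error 0.10, limma adjusted p = 0.0131). Malt1, the protease that Bcl10 binds, was 1.5, 1.6, 1.4 and 1.5 FPKM in normal mice and 2.1, 1.9, 1.9 and 1.8 in HFD mice, which is 0.34 on the log2 scale (limma adjusted p = 0.0377). Neither overlapped between the diets. Leaving out single mice, Malt1 was called only without HFD mouse 4, and its limma adjusted p was 0.0557 or more in the other 7 fits. Myd88, Irak1, Irak2, Ripk1, Tradd and Traf2, which carry the signal from the receptors to IKK, were not called.

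Of 24 listed inflammatory ligands and targets, 7 were tested, and 1 was called, where 33.1% of all genes tested were called. Gadd45b, a stress gene induced by NF-kB and by neuronal activity, was 10.3, 8.7, 8.2 and 10.7 FPKM in normal mice and 7.9, 8.0, 7.5 and 7.0 in HFD mice (log2 fold change -0.31, limma adjusted p = 0.0307). Leaving out single mice, it was called only without normal mouse 2 and without normal mouse 3, and its limma adjusted p otherwise reached 0.0753. Vcam1, Ptgs2, Sod2, Bcl2l1, Il18 and Csf1 were not called, with log2 fold changes from -0.15 for Il18 to 0.20 for Bcl2l1. Of the 7 genes, 3 had an unadjusted p below 0.05 in limma (44.3% of all genes tested) and 3 had no overlap between the diets (31.9%). These were Gadd45b, Bcl2l1, higher in HFD mice (limma adjusted p = 0.0569), and Sod2, lower (limma adjusted p = 0.0681). In the groups of other DNA-binding subunits and other inhibitors, 0 of 1 (Relb) and 0 of 4 genes (Nfkbiz, Nfkbid, Nkiras1 and Nkiras2) were called by limma. Of these genes 0 and 1 had an unadjusted p below 0.05 in limma, against 44.3% of all genes tested.

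**Figure D4:**
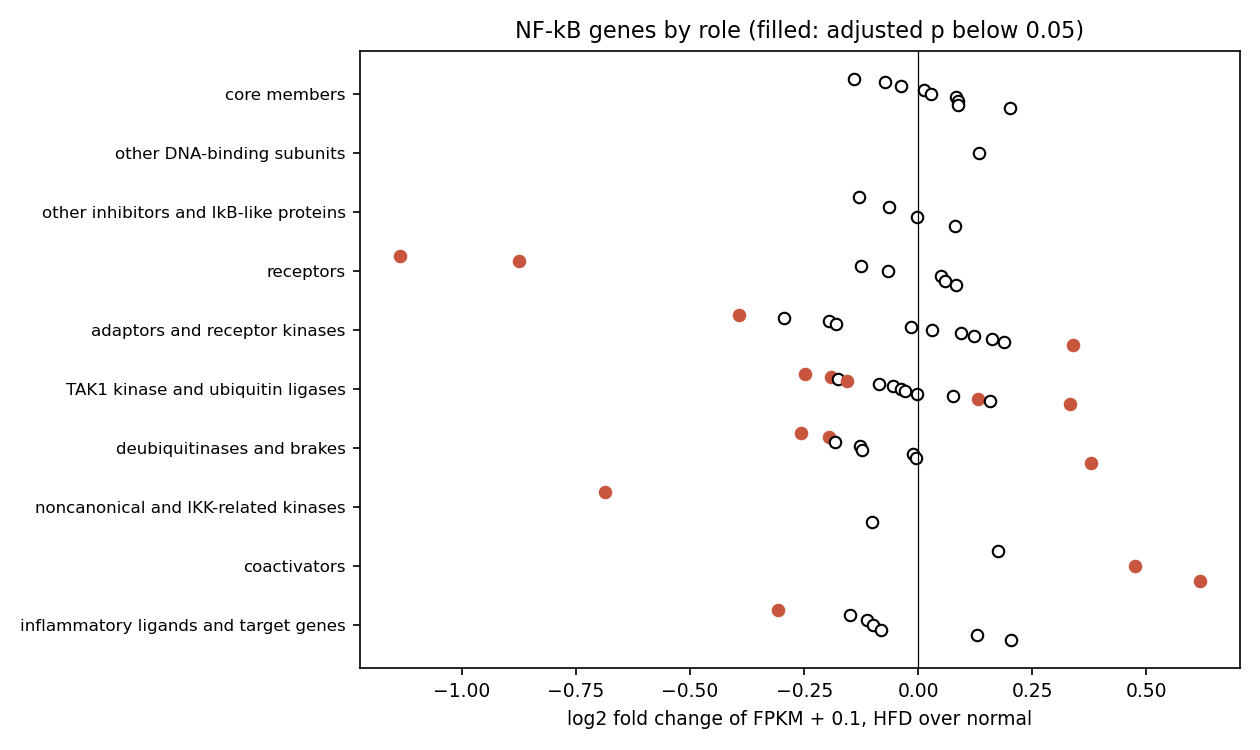
Log2 fold change of FPKM + 0.1, HFD over normal (horizontal axis), of the 9 core genes and of the 56 other NF-kB genes in 9 groups by role (rows), with called genes filled in red. The core row has 0 filled points and spans -0.14 to 0.20, while filled points of the other rows reach -1.14 (Tnfrsf12a) and 0.62 (Crebbp). Il1r1, in the row of receptors, is filled but passed the filter only through the normal mice, so its point is a description and not a test.

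Markers of the cells in which NF-kB is best known were set beside these results. Over all genes tested, 33.1% were called, 17.7% higher and 15.3% lower. For microglia 9 of 10 listed markers were tested, 0 were called by limma, and their summed FPKM was 173.6 to 212.3 in normal mice and 184.5 to 196.3 in HFD mice. Endothelial markers (8 of 8 tested, 1 called higher and 2 lower) summed to 89.4 to 100.4 and 80.0 to 90.6 FPKM. Astrocyte markers (8 of 8 tested, 1 called higher and 3 lower) summed to 1243.8 to 1437.9 and 1213.8 to 1287.7 FPKM. These sums overlapped between the diets. Of the list for neutrophils and lymphocytes, 1 of 5 genes was among the values, at 0.9 to 3.0 FPKM in normal mice and 0.5 to 1.6 in HFD mice.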

How the data were processed

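Per the labels and the study's methods, the deposited FPKM values were made by the authors with Cuffnorm on GENCODE M17 after trimming (Trimmomatic) and alignment to mm10 (STAR). Their tool versions are not given in the sources read. Because FPKM is already scaled and was rounded to 0.1, sequencing depth is unknown for each mouse, no counting interval can be given, and precision comes from the 4 mice of a diet. Sums of FPKM lay between 562431 and 639142.

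From these values, limma 3.58.1 (R 4.3.3) compared HFD with normal mice on log2(FPKM + 0.1), two-sided, with a variance trend. It used the 13982 genes that pass the filter of the authors (mean FPKM not under 1, no mouse at 0) and takes the place of their t-test per gene. The authors also ran Salmon with edgeR and kept only genes called by both pipelines. That step was not repeated, so the shares called here are not comparable with their selection. A gene was called at an adjusted p below 0.05 (Benjamini-Hochberg). The members and the gene lists were chosen with earlier results of these data known, so no p over a list is given. Named genes were the 9 members and, per role group, up to 3 called genes each way; uncalled genes named beside them are named after their values were seen. On simulated data over 13982 genes, 68 of 100 genes changed 1.5-fold and 87 of 100 changed 2-fold were recovered, with 17 false calls. The changed genes were a far smaller share than the 33.1% called in the data. The adjustment is therefore stricter in the simulation, and its recovery does not carry over to the 9 genes. Mice were not paired: the replicate number is only a name. Alternatives were other added constants, filters and scalings, no trend, a replicate block, a covariate of 4 cerebellar markers, and single mice left out. Leaving out normal mice 2 and 3 together was chosen after seeing the data. Coordinates and overlaps come from GENCODE M21 on GRCm38, in which 8 of 9 members have the same gene ID version as in the deposited values; promoter sequences come from RefSeq on GRCm38.p6. Tables were made with Python 3.11.15 and pandas 2.3.3.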

Additional observations from a re-analysis of the deposited data

Results flagged for a closer look

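In groups of 4 mice, 1 mouse stood apart from the other 3 by Dixon's test at the 95% level in 6 of 90 groups searched, where chance gives about 1 in 20. Tnfrsf1a was 2.6 FPKM in normal mouse 3 and 2.5 in the other normal mice, and Il1r1 was 0.8 FPKM in HFD mouse 2 and 0.7 in the other HFD mice, both a single step of rounding. Rnf31 was 9.3 FPKM in HFD mouse 3 and 8.1 to 8.3 in the other HFD mice. Marker sums that stood apart were those of oligodendrocytes in HFD mouse 3 (2019.1 FPKM), of astrocytes in HFD mouse 1 (1287.7 FPKM) and of choroid plexus in HFD mouse 4 (943.3 FPKM, against 22.1 to 78.3 in the other HFD mice).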

How the results depend on the processing

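Each of the 9 genes stayed uncalled in all alternatives in which it was tested, except Nfkbib without HFD mouse 4. The count of called members with single mice left out was 0 to 1, where 23.6% to 33.1% of all genes tested were called. The count of members whose interval lay inside 1.5-fold was 8 of 9 with the cerebellar covariate, 7 of the 7 tested under a filter at a mean of 5 FPKM, and 9 of 9 otherwise. Some signs reversed: with the cerebellar covariate Nfkb1 was 0.0491 and Nfkbia 0.0421, without normal mice 2 and 3 Nfkbia was 0.016, and with quantile normalization Tnfrsf1a was -0.0164 (log2 fold changes). With single mice left out, Rela ranged from -0.00625 to 0.149, Nfkbia from -0.127 to 0.0476, Traf6 from -0.0231 to 0.067 and Tnfrsf1a from -0.0143 to 0.0402. The replicate numbers do not pair the mice (correlations of deviations -0.11 to -0.03). With the replicate block 0 members and 13 of the 56 wider genes were called, where 24.2% of all genes tested were called.

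The count of called genes of the wider pathway moved with the settings, as did the share called over all genes. With the cerebellar covariate 3 were called (1 higher, Crebbp, and 2 lower, Bcl10 and Gadd45b), and 3.72% of all genes against 33.1%; the median standard error of the 9 members rose to 0.15. Without normal mice 2 and 3 there were 10 of the 56, with 3 higher and 7 lower, and 19.7% of all genes tested were called. The cause was not tested. With single mice left out, the count was 12 to 15, with 4 to 5 higher and 8 to 11 lower. In these fits 23.6% to 33.1% of all genes tested were called. With an added constant of 1, Il1r1 was -0.487 and Map3k14 -0.445, against -0.876 and -0.686. Depth is unknown, and rounding to 0.1 limits Tnfrsf1a, Il1r1, Malt1 and Map3k14.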
